A study of Mus musculus with 10 samples.

Results

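Macrophage genes were examined in the obstructed kidneys of mice treated with dimethyl malonate (DMM) or PBS. The group comprised 10 genes, Adgre1, Csf1r, Cd68, Mrc1, Cd163, Mertk, Lyz2, C1qa, C1qb and C1qc, which were taken by symbol from the 54532 genes of the deposited count table, and each symbol matched a single gene. Macrophages of the kidney lie between the tubules and capillaries, depend on signals through the CSF1 receptor, engulf dying cells and are a main source of C1q, the complex that starts the classical complement pathway. Some are long-lived residents of the tissue, and others arise from blood monocytes after an injury. Most genes of this group are used by both kinds, so that resident and monocyte-derived macrophages cannot be told apart from these values.

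All mice were male, wild type and on the C57BL/6 background, and at an age of 8 weeks the left ureter was ligated (UUO, unilateral ureteral obstruction). DMM, an ester prodrug whose product inhibits succinate dehydrogenase, was given intraperitoneally at 40 mg/kg every other day, control mice received PBS, and kidneys were taken on day 14. RNA of each obstructed kidney gave a bulk library, with 5 libraries in each group and no kidney without obstruction in the comparison. The total count per library lay between 16457495 and 18078777 in PBS kidneys and between 15722527 and 19475833 in DMM kidneys. Levels are given as CPM, the count of a gene relative to the library total after scaling by the TMM method of edgeR. Differences were tested by edgeR's quasi-likelihood test across all genes past its filter on low counts, and calls required a fold change over 1.5 as well as an adjusted p (Benjamini-Hochberg) below 0.05. The p-values measure the spread between these kidneys, which the study describes as independent replicates.

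A few libraries stood apart. DMM replicate 4 had a count on 20029 genes, against 22898 to 24083 in the other 9 libraries, and 5.62% of its counts lay on the mitochondrial genome, against 1.97% to 4.39%. Its levels also varied with gene length. When the tested genes were divided by length into 4 classes of equal size, the shortest class had 57 to 2403 bp and the longest 6292 to 123179 bp. In the shortest class, the median log2 CPM of DMM replicate 4 differed by -0.62 from the mean of the other 9 libraries, and in the longest by 0.51. The same medians lay between 0.04 and 0.14 for short genes and between -0.09 and -0.04 for long genes in the other libraries, each compared in the same way. Of the macrophage genes, C1qa (1040 bp), C1qb (1088 bp), Cd68 (1257 bp), Lyz2 (1316 bp) and C1qc (1931 bp) were in the shortest class and Mrc1 (6371 bp) in the longest. Besides, the group means deposited by the authors give no weight (0) to PBS replicate 3 and to DMM replicate 1. The main results are therefore given over all 10 libraries, over the 8 libraries without PBS replicate 3 and DMM replicate 1, and over the 7 libraries that remain when DMM replicate 4 is also left out. Both libraries without weight were nearest to a library of the other treatment. By the mean chi-square per gene between the counts of a pair, the library nearest to DMM replicate 1 was PBS replicate 2 (7.68) and its nearest DMM library was replicate 2 (49.8). The library nearest to PBS replicate 3 was DMM replicate 2 (22.0), and its nearest PBS library was replicate 1 (35.8), though the summed interferon response level of PBS replicate 3, 3431 CPM, was within the range of the other PBS kidneys. Leaving them out therefore favours a separation of the groups, and the p-values over 8 and 7 libraries are too small to the extent that this choice depends on the outcome. The attention to DMM replicate 4 came after its values were seen, and the 3 sets share libraries, so that they are no independent checks of each other.

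**Figure D1:**
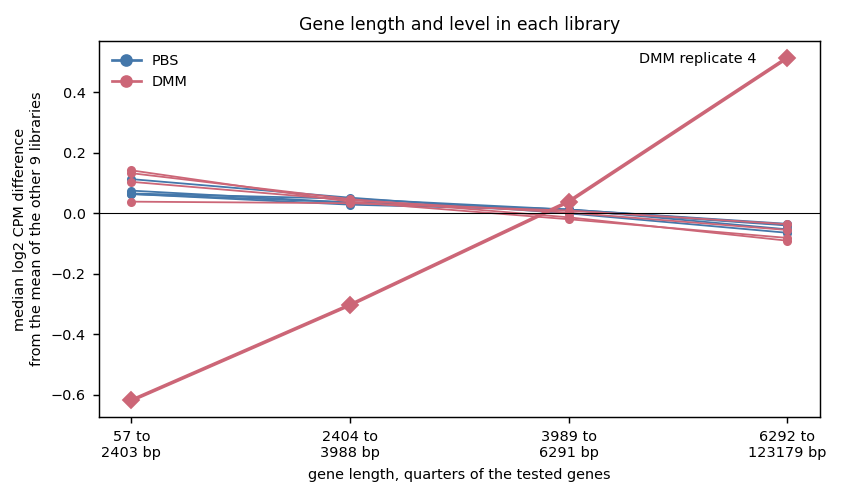
Gene length and level in each library. Each line is a library, and each point is the median, over a class of tested genes by length (x axis, base pairs), of its log2 CPM minus the mean of the other 9 libraries (y axis). DMM replicate 4 runs from -0.62 for the shortest genes to 0.51 for the longest, while the other 9 libraries lie between -0.09 and 0.14.

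Genes that identify the kidney were present in these libraries. Umod of the thick ascending limb and Kap of the proximal tubule were the most abundant genes of their lists, at a mean of 2399 and 2270 CPM over the 10 libraries. Among the macrophage genes, Lyz2 was the most abundant at 584 CPM, and each gene had counts in every library, with a lowest count of 32 for Cd163 and of 377 or more for the others. Markers of specialised macrophages of other organs were at or near 0. Clec4f of Kupffer cells had no count in any library, and Vsig4, Marco, Cd5l and Timd4 were below 1 CPM in each and were not tested.

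Over all 10 libraries, none of the 10 macrophage genes was called, and 0% of the 16505 tested genes were called (0 genes by edgeR's quasi-likelihood test, and 50 of another 30751 tested genes by DESeq2, which had its own filter). Without adjustment, 993 genes had a p below 0.05 together with a fold change over 1.5, and Adgre1, Cd68, C1qa, C1qb and C1qc, 5 of the 10, were among the genes lower in DMM kidneys, which made up 4.11% of those tested. Over the 8 libraries, a set that favours separation, Cd68 and C1qb fell, 2 of 10, against 3.56% of 16550 genes called lower and 2.73% called higher. Over the 7 libraries, Adgre1, Cd68, Lyz2, C1qa, C1qb and C1qc fell, 6 of 10, against 7.61% of 16828 genes called lower and 6.71% called higher. The median log2 fold change of the 10 genes was -0.60, -0.80 and -0.80 over the 10, 8 and 7 libraries, and that of all tested genes 0.02, 0.02 and -0.01. In bulk RNA, fewer macrophages and less of an RNA in each macrophage cannot be told apart.

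**Figure D2:**
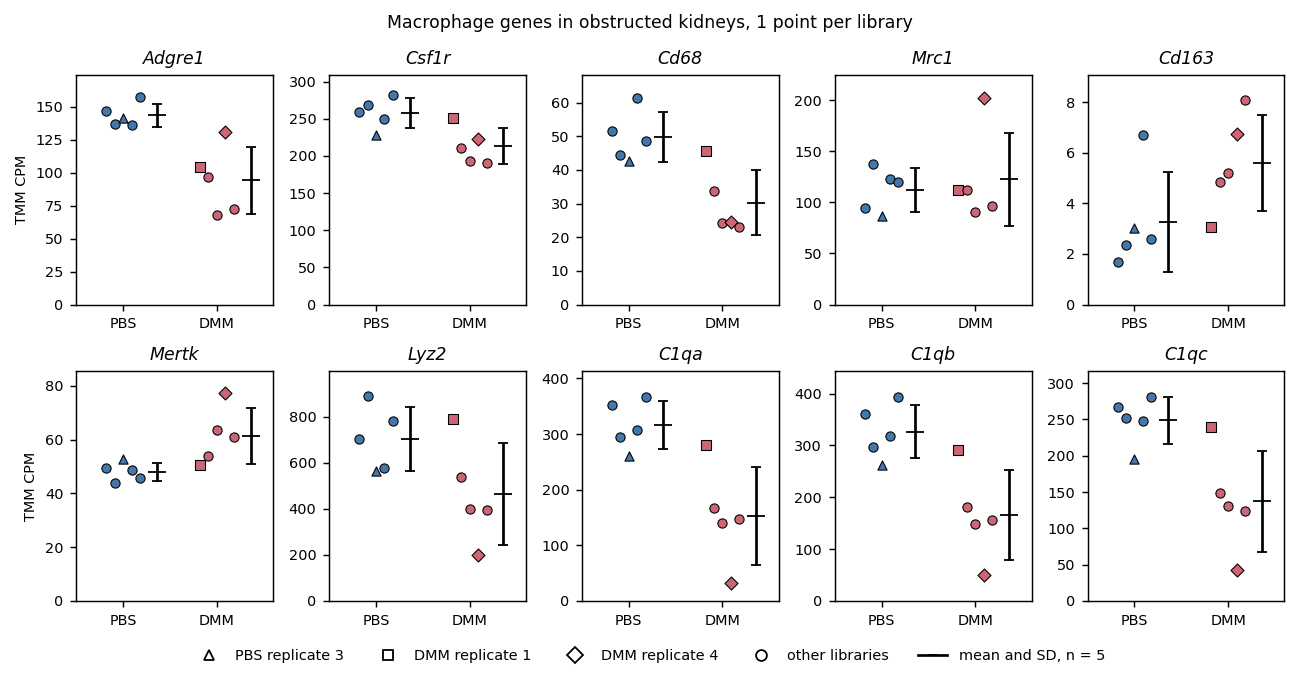
Levels of the macrophage genes in obstructed kidneys. Each point is the TMM CPM of a library (y axis, starting at 0), with PBS on the left and DMM on the right of each panel, and the bars give mean and SD of 5 libraries. DMM replicate 4 (diamonds) was the lowest library for the C1q genes, at 32.5 to 49.4 CPM, and the highest DMM library for Adgre1, Mrc1 and Mertk.

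Adgre1 encodes F4/80, the surface receptor by which mouse macrophages are usually identified (ENSMUSG00000004730, chromosome 17, 57358691 to 57483527, plus strand, mm10). It was at 147, 137, 141, 136 and 157 CPM in PBS replicates 1 to 5 and at 104, 96.4, 67.8, 131 and 72.8 CPM in DMM replicates 1 to 5. Every DMM kidney was below every PBS kidney, with DMM replicate 4 next to the lowest PBS value. Among the 10 genes, Adgre1 was the only one whose groups did not overlap over all 10 libraries, and 1.16% of tested genes were separated in this direction. The means were 144 CPM in PBS and 94.3 CPM in DMM kidneys (SD 8.71 and 25.4, n = 5 each), with a log2 fold change of -0.61 (standard error 0.17) that was not called (edgeR's quasi-likelihood test, adjusted p = 0.378). The log2 fold change was -0.65 over the 8 libraries (edgeR, adjusted p = 0.0959) and -0.87 over the 7 (edgeR, adjusted p = 0.00123), where Adgre1 fell.

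Cd68 encodes a glycoprotein of lysosomal and endosomal membranes of phagocytes (ENSMUSG00000018774, chromosome 11, 69664213 to 69666153, minus strand). Its level was 51.7, 44.3, 42.5, 61.2 and 48.6 CPM in PBS replicates 1 to 5 and 45.7, 33.8, 24.4, 24.4 and 22.9 CPM in DMM replicates 1 to 5. DMM replicate 1 lay within the PBS range, and the other DMM kidneys were below it. Cd68 differed from the other short genes in DMM replicate 4, where it equalled replicate 3. The log2 fold change was -0.72 (standard error 0.20) over 10 libraries and was not called (edgeR, adjusted p = 0.378). Over the 8 libraries Cd68 fell from a mean of 51.5 to 26.4 CPM (SD 7.18 and 5.02, n = 4 each), a log2 fold change of -0.97 (standard error 0.16; edgeR, adjusted p = 0.0108). It was called in each of the 8 fits that left out another of these libraries, with log2 fold changes between -1.11 and -0.87, and was the only macrophage gene for which this held.

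Csf1r encodes the receptor for CSF1 and IL-34, on which macrophages depend for survival (ENSMUSG00000024621, chromosome 18, 61105572 to 61132149, plus strand). It was at 259, 269, 228, 250 and 282 CPM in PBS replicates 1 to 5 and at 251, 210, 194, 223 and 191 CPM in DMM replicates 1 to 5. DMM replicate 1 lay within the PBS range, and the other DMM kidneys were below it. The difference was small in each set, with log2 fold changes of -0.27, -0.37 and -0.42 over the 10, 8 and 7 libraries and edgeR adjusted p-values of 0.422, 0.0666 and 0.00215. The last of these passed the threshold on p, as did 4727 genes, or 28.1% of those tested, over the 7 libraries, but Csf1r was below the fold change needed for a call. Csf1r overlaps Hmgxb3 on the opposite strand, and whether the counting used strand is not stated, so that reads of the pair may be mixed.

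The genes of the C1q chains lie side by side within a short stretch of chromosome 4, all on the minus strand, with C1qb (136880129 to 136886187) followed by C1qc (136889804 to 136893065) and C1qa (136895917 to 136898803). Their products A, B and C assemble into the recognition unit that binds antibody complexes and dying cells. C1qa (ENSMUSG00000036887) was at 353, 295, 260, 308 and 366 CPM in PBS replicates 1 to 5 and at 280, 167, 140, 32.5 and 148 CPM in DMM replicates 1 to 5. C1qb (ENSMUSG00000036905) was at 360, 298, 263, 319 and 394 CPM in PBS and at 292, 181, 149, 49.4 and 157 CPM in DMM replicates in the same order. DMM replicate 1 was within the PBS range for both genes, DMM replicates 2, 3 and 5 were close to each other below it, and DMM replicate 4 was far lower still. C1qc (ENSMUSG00000036896) was between 196 and 281 CPM in PBS kidneys and at 239, 148, 130, 43.3 and 124 CPM in DMM replicates 1 to 5.

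None of the C1q genes was called over 10 libraries, with log2 fold changes of -1.04 for C1qa, -0.98 for C1qb and -0.86 for C1qc (edgeR, adjusted p = 0.408, 0.388 and 0.408). Over the 8 libraries, C1qb fell from a mean of 343 to 134 CPM (SD 42.7 and 58.0, n = 4 each), a log2 fold change of -1.35 (standard error 0.34; edgeR, adjusted p = 0.0479). C1qc and C1qa were on the other side of the threshold, at -1.24 and -1.44 (edgeR, adjusted p = 0.0521 and 0.0743). The call of C1qb was lost when any of the 8 libraries other than DMM replicate 4 was left out, with an edgeR adjusted p between 0.0556 and 0.138. Without DMM replicate 4, the difference was smaller but its error was smaller by more. C1qa, C1qb and C1qc then fell, with log2 fold changes of -1.12, -1.08 and -0.97 (standard errors 0.10, 0.11 and 0.08; edgeR, adjusted p = 0.000121, 0.00033 and 9.33e-05). The log2 ratio of C1qa to C1qb was between -0.10 and -0.01 in PBS kidneys, between -0.12 and -0.06 in DMM replicates 1, 2, 3 and 5, and -0.60 in DMM replicate 4. That of C1qc to C1qb was between -0.49 and -0.24 in PBS kidneys and between -0.34 and -0.19 in DMM kidneys, where DMM replicates 3 and 4 were alike.

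**Figure D3:**
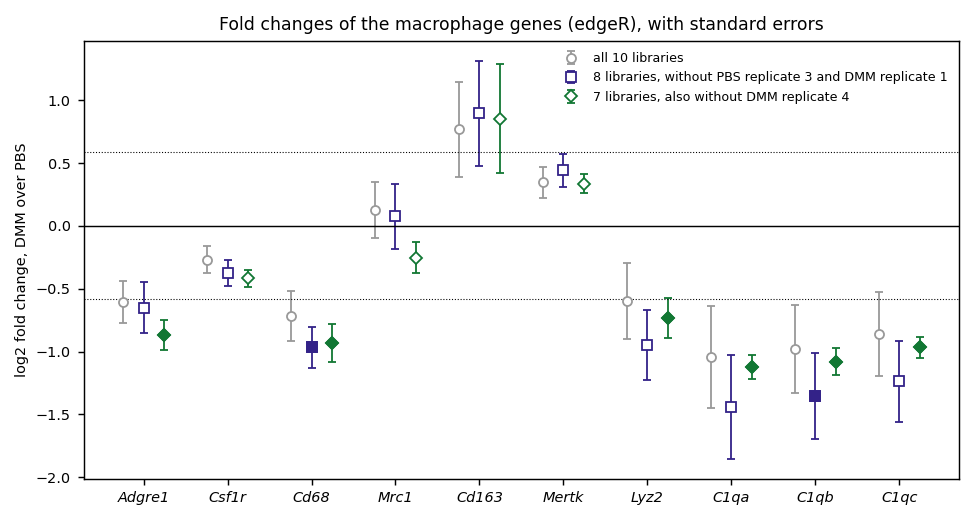
Fold changes of the macrophage genes. Points give the log2 fold change of DMM over PBS (y axis) from edgeR over 10, 8 and 7 libraries, bars the standard error, filled points called genes and dotted lines a fold change of 1.5. C1qa moved from -1.44 over the 8 libraries to -1.12 over the 7 with a narrower error, and Mrc1 from 0.08 to -0.25.

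Lyz2 encodes lysozyme M, a secreted and lysosomal enzyme that cleaves bacterial cell walls and is shared by macrophages, monocytes and neutrophils (ENSMUSG00000069516, chromosome 10, 117277331 to 117282321, minus strand). It was at 701, 890, 565, 578 and 780 CPM in PBS replicates 1 to 5 and at 792, 539, 398, 198 and 396 CPM in DMM replicates 1 to 5. DMM replicate 1 was the second highest of all kidneys, and the other DMM kidneys were below each PBS kidney. The log2 fold change was -0.60 over 10 libraries and -0.95 over 8, and was not called in either (edgeR, adjusted p = 0.497 and 0.0790). Over the 7 libraries Lyz2 fell, with a log2 fold change of -0.73 (edgeR, adjusted p = 0.00930). Its values are uncertain because the neighbouring paralog Lyz1 has a similar sequence and reads may be split between the pair. Lyz1 was far less abundant, at 1.8 to 7.8 CPM in PBS kidneys, and at 3.8 CPM in DMM replicate 1 and 0.54 to 1.0 CPM in the other DMM kidneys.

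Mrc1, Cd163 and Mertk encode receptors by which macrophages take up material, and over all 10 libraries their levels did not follow those of the genes above. For Mrc1 this rested on DMM replicate 4 as to Cd68, Lyz2 and the C1q genes, while its correlation with Adgre1 hardly moved. Without that library, its Pearson r with the genes above was between 0.38 (Adgre1) and 0.64 (Lyz2). With it, the r with these 2 genes was 0.35 and -0.40. Mertk is a receptor tyrosine kinase that recognises dying cells through bridging proteins (ENSMUSG00000014361, chromosome 2, 128698956 to 128802894, plus strand). It was at 49.4, 43.8, 52.7, 48.8 and 45.9 CPM in PBS replicates 1 to 5 and at 50.7, 53.8, 63.5, 77.6 and 60.8 CPM in DMM replicates 1 to 5. DMM replicates 2 to 5 were above every PBS kidney, and DMM replicate 1 was within the PBS range. Over the 8 libraries Mertk was the only macrophage gene whose groups were apart with DMM higher, where 9.45% of tested genes were, and 7 genes were apart with DMM lower, where 10.6% were. Its log2 fold change was 0.35, 0.44 and 0.34 over the 10, 8 and 7 libraries (edgeR, adjusted p = 0.387, 0.0762 and 0.0106), always below the fold change needed for a call. Mertk overlaps the antisense gene Gm14011, whose reads may be mixed with its own, and epithelial cells also express it.

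Mrc1 encodes the mannose receptor CD206 (ENSMUSG00000026712, chromosome 2, 14229392 to 14332057, plus strand). It was at 94.2, 138, 86.4, 123 and 120 CPM in PBS replicates 1 to 5 and at 112, 112, 90.6, 202 and 96.2 CPM in DMM replicates 1 to 5. DMM replicate 4 was the highest of all libraries and the remaining DMM kidneys lay within the PBS range. The sign of the difference was not stable, since the log2 fold change was 0.13 over 10 libraries, 0.08 over 8 and -0.25 over 7 (edgeR, adjusted p = 0.830, 0.893 and 0.173). Cd163, which encodes the scavenger receptor for haptoglobin-bound hemoglobin (ENSMUSG00000008845, chromosome 6, 124304656 to 124330527, plus strand), was barely expressed, at 1.69, 2.35, 3.04, 6.70 and 2.59 CPM in PBS and 3.09, 4.85, 5.21, 6.77 and 8.08 CPM in DMM replicates 1 to 5. PBS replicate 4, whose value goes against the difference, lay among the DMM kidneys. Without it, Cd163 was called higher over the rest of the 8 libraries (log2 fold change 1.49; edgeR, adjusted p = 0.0366) but not over the rest of the 10 (1.21; edgeR, adjusted p = 0.680). With it, the log2 fold change was 0.77, 0.90 and 0.85 over the 10, 8 and 7 libraries and was not called (edgeR, adjusted p = 0.488, 0.258 and 0.180).

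Levels of different genes were compared per gene length, as FPKM from the deposited table. In PBS kidneys the order was Lyz2 at 530 ± 104 (SD, n = 5) FPKM, C1qa at 302 ± 41.7, C1qb at 298 ± 47.4, C1qc at 128 ± 16.9, Csf1r at 52.3 ± 4.16, Adgre1 at 44.0 ± 2.72, Cd68 at 39.2 ± 5.89, Mrc1 at 17.5 ± 3.33, Mertk at 11.0 ± 0.77 and Cd163 at 0.60 ± 0.36. C1qa and C1qb, and Adgre1 and Cd68, did not differ beyond their SD, while the other neighbours did. In DMM kidneys the SD was wider for each gene but Cd163, and C1qb and C1qa changed places. There the gaps between Csf1r at 43.5 ± 4.97 (SD, n = 5) and Adgre1 at 28.9 ± 7.72 FPKM, and between Mertk and Cd163, were the only ones between neighbours that exceeded their SD.

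Ratios within a library are free of the scaling between libraries, and the log2 ratio of CPM to Adgre1 was computed for the other 9 genes as a description. Over all 10 libraries the groups were apart for the ratios of Mertk and Mrc1. Since they were apart for Adgre1 itself, the ratio of an unchanged gene to it may separate them too. The share of all tested genes whose ratio does so was not computed. The ratio of Mertk to Adgre1 was between -1.77 and -1.42 in PBS kidneys and between -1.04 and -0.10 in DMM kidneys. That of Mrc1 was between -0.71 and 0.01 in PBS kidneys, at 0.63 in DMM replicate 4 and between 0.10 and 0.42 in the other DMM kidneys. DMM replicate 1, which had PBS-like levels of most macrophage genes, was on the DMM side in both ratios because its Adgre1 was low. The ratios of C1qa, C1qb and C1qc to Adgre1 were -2.01, -1.40 and -1.60 in DMM replicate 4. In the other DMM kidneys they were between 0.62 and 1.49, and in PBS kidneys between 0.47 and 1.33.

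Across the 10 libraries, log2 CPM of some macrophage genes went together and that of others ran opposite to them. Mrc1 did neither throughout, with a Pearson r of 0.35 with Adgre1, -0.58 with C1qa and 0.31 with Mertk. C1qa, C1qb and C1qc were correlated with each other at a Pearson r of 0.995 to 0.997 and with Lyz2 at 0.943 to 0.961, and Mertk was opposite to Lyz2 at -0.970. These libraries share the treatment groups, and leaving out DMM replicate 4 moved several coefficients. Whether its length pattern had a part in this was not tested. Adgre1 and C1qa had an r of 0.31 over 10 libraries and of 0.936 over the 9 without DMM replicate 4, and Mrc1 and C1qa of -0.58 and 0.42. The opposite course of Mertk and Lyz2 was at -0.931 over the 9 libraries. The median r over all 45 pairs was 0.31 with and 0.64 without DMM replicate 4. These values include the difference between treatments. With the group means taken off, the r of Adgre1 and C1qa was -0.46 and the median over pairs 0.16 over 10 libraries.

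The genes most like the mean standardized profile of the 10 macrophage genes over the 10 libraries were Nod1, Fyn, Lgals8, Cybc1, Grk2, Zfp46, Nfkbie and Cd22, with a Pearson r between 0.979 and 0.988. Nod1 encodes a sensor of bacterial cell wall fragments, Cybc1 a chaperone of the phagocyte oxidase, and Cd22 a receptor best known from B cells. When the group means were taken off first, the most alike were Lgals8, C1qtnf6, Ehbp1l1, Emp3, P2ry6, Nod1, Cybc1 and Lix1l, with an r between 0.971 and 0.983. The profile itself was matched closely by Cd68 (r = 0.964 over 10 libraries) and Csf1r (r = 0.913) and not by Mrc1 (r = 0.01), and Cd163 (r = -0.61) and Mertk (r = -0.88) ran against it. These genes are part of the profile, so that each r is partly with the gene itself. By Spearman's rank correlation, 1 of the first 8 genes and 2 of the second 8 were again among the 8 most alike.

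Other markers of macrophages were compared by their counts. Of 26 such genes 21 were tested, 20 of them with a negative log2 fold change over 10 libraries, and 0, 7 and 8 were called lower over the 10, 8 and 7 libraries, with medians of -0.50, -0.74 and -0.61. Of all tested genes, 47.2% had a negative log2 fold change over 10 libraries, and 0%, 3.56% and 7.61% were called lower. The adapter Fcer1g, which carries signals of Fc receptors, fell by 1.21 on the log2 scale over the 8 libraries, from a mean of 82.1 to 35.4 CPM (edgeR, adjusted p = 0.0109). Ms4a7, a membrane protein of mature macrophages, and Aif1, the actin-binding protein IBA1, fell by 1.48 and 1.46 on the log2 scale (edgeR, adjusted p = 0.0139 and 0.0187). Siglec1, the sialic acid receptor CD169 and a gene inducible by interferon, fell most of these, by 2.08 on the log2 scale (edgeR, adjusted p = 0.000548). It was at 131 to 185 CPM in PBS kidneys and 151 CPM in DMM replicate 1, and at 28.9 to 52.2 CPM in DMM replicates 2 to 5.

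Ligands, receptor chains and transcription factors that sustain macrophages comprised 13 tested genes. Of these, 0, 3 and 5 were called lower over the 10, 8 and 7 libraries, with medians of -0.07, -0.24 and -0.53. Among all tested genes, 0%, 3.56% and 7.61% were called lower. Csf1, a ligand of the CSF1 receptor, was at 133, 121, 103, 142 and 133 CPM in PBS replicates 1 to 5 and at 118, 68.3, 74.7, 51.0 and 67.6 CPM in DMM replicates 1 to 5. DMM replicate 1 lay within the PBS range, and the other DMM kidneys below it. Over the 8 libraries Csf1 fell by 1.02 on the log2 scale (edgeR, adjusted p = 0.00401), which was more than its receptor, whose difference was not called. Il34, which encodes the other ligand, was between 68.0 and 91.2 CPM in PBS kidneys and between 42.5 and 107 CPM in DMM kidneys, with a log2 difference of 0.03 over the 8 and 0.25 over the 7 libraries (edgeR, adjusted p = 0.955 and 0.105). DMM replicate 4 was the lowest, and the other DMM kidneys were at 90.1 CPM or more. It is given beside Csf1 as the partner of the receptor and not by its rank. Spi1, which encodes the macrophage transcription factor PU.1, and Irf8 fell by 1.20 and 0.65 on the log2 scale over the 8 libraries (edgeR, adjusted p = 0.0216 and 0.0296), and Irf8, at -0.58, was below the fold change for a call over the 7.

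Of 17 genes for scavenging and for dying cells, which were receptors and the bridging proteins Gas6, Pros1 and Mfge8, 16 were tested. Called were 1 lower and 1 higher over the 8 libraries, over the 7 libraries 2 lower and 1 higher, and over the 10 libraries 0, with medians of -0.22, -0.24 and -0.11. These counts are near the shares of all tested genes, 3.56% lower and 2.73% higher over the 8 libraries and 7.61% and 6.71% over the 7. Axl, a kinase of the same family as Mertk, fell from a mean of 521 to 272 CPM (SD 47.8 and 37.8, n = 4 each), a log2 fold change of -0.94 (edgeR, adjusted p = 0.00609), while Mertk had a positive one. The log2 ratio of Mertk to Axl was between -3.63 and -2.80 in PBS kidneys, -3.39 in DMM replicate 1 and between -2.39 and -1.97 in DMM replicates 2 to 5. The fatty acid receptor Cd36, which tubule and endothelial cells also express, rose by 0.84 on the log2 scale (edgeR, adjusted p = 0.0112), and PBS replicate 3 had 167 CPM, within the range of 121 to 181 CPM in DMM replicates 2 to 5. Itgav, the integrin chain with the smallest p of this list over 10 libraries, was not called, at 0.38 over the 8 libraries (edgeR, adjusted p = 0.205).

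Downstream of C1q, the classical complement pathway was represented by 10 tested genes, of which 0, 2 and 5 were called lower over the 10, 8 and 7 libraries, with medians of -0.62, -0.77 and -0.63. Beside these counts and those of the next list, 0%, 3.56% and 7.61% of all tested genes were called lower. C1s1 encodes a protease of the C1 complex, and it fell from a mean of 203 to 110 CPM over the 8 libraries, by 0.88 on the log2 scale (edgeR, adjusted p = 0.0306). Itgax, a chain of a complement receptor that dendritic cells share, fell by 1.30 on the log2 scale (edgeR, adjusted p = 0.0148). C2, a later component of the pathway, was at -0.79 and was not called over the 8 libraries, and was called at -0.66 over the 7 (edgeR, adjusted p = 0.0556 and 0.0194). Among 21 lysosomal genes of phagocytes, 0, 5 and 7 were called lower over the 10, 8 and 7 libraries, with medians of -0.28, -0.37 and -0.29. The protease gene Ctss, the cholesterol carrier Npc2, the membrane protein Laptm5 and the progranulin gene Grn fell by 1.34, 0.96, 0.74 and 0.96 on the log2 scale over the 8 libraries (edgeR, adjusted p = 0.00192, 0.0135, 0.0108 and 0.0229).

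Markers of other immune cells were compared by the same counts. The shares of all tested genes were 3.56% called lower and 2.73% called higher over the 8 libraries, 7.61% and 6.71% over the 7, and 0% over the 10. A single call in a short list is little beyond them. Of 12 monocyte genes, 3 were called lower and 1 higher over the 8 libraries, 6 lower and 1 higher over the 7, and 0 over the 10, with medians of -0.72, -1.01 and -0.48. Ly6c2 of inflammatory monocytes fell by 2.85, Plac8 by 1.41 and Spn by 0.99 on the log2 scale, and Ace, which the proximal tubule also expresses, rose by 0.80 (edgeR, adjusted p = 0.00713, 0.00175, 0.0279 and 0.0124). The summed level of the monocyte list was between 504 and 598 CPM in PBS kidneys, and 556, 372, 319, 544 and 383 CPM in DMM replicates 1 to 5. Plac8 was the most abundant on average over the 10 libraries, but Ace was above it in DMM replicates 2 to 5, at 122 to 163 against 63.3 to 75.7 CPM, and in PBS replicate 3, at 171 against 144 CPM. Of 10 T cell genes, all with negative log2 fold changes, Cd4 and Cd2 fell over the 8 libraries, by 1.19 and 1.84 on the log2 scale (edgeR, adjusted p = 0.0271 and 0.0191), and Cd5, at -1.11, was not called (edgeR, adjusted p = 0.118). The summed T cell level was between 51.6 and 90.6 CPM in PBS kidneys and 56.2, 45.6, 19.9, 24.8 and 24.6 CPM in DMM replicates 1 to 5, with Cd4 the most abundant on average. Over the 10, 8 and 7 libraries, 0, 2 and 5 T cell genes were called lower, with medians of -0.94, -1.20 and -1.14. Called lower over the 8 libraries were also 2 of 10 dendritic cell genes, 1 of 6 B cell genes, 1 of 8 NK cell genes and 0 of 8 neutrophil genes, with medians of -0.65, -0.70, -0.77 and -0.24. Over the 7 libraries these counts were 5, 2, 2 and 1, with medians of -0.79, -0.31, -0.89 and -1.64, and over the 10 libraries 0 in each list, with medians of -0.47, -0.30, -0.74 and 0.21. The homing receptor Ccr7 of dendritic cells, the receptor Cd22 of B cells and the activating receptor Klrk1 of NK cells fell, with log2 fold changes of -1.64, -1.79 and -1.60 (edgeR, adjusted p = 0.00963, 0.00236 and 0.0148). The integrin chain Itgae, the other dendritic cell gene, fell from a mean of 10.5 to 5.24 CPM (edgeR, adjusted p = 0.0483). The B cell factor Pax5 at -1.10, the granzyme Gzma at -0.98, and the neutrophil genes Csf3r at -0.55 and Mmp8 at 0.45 were not called over the 8 libraries (edgeR, adjusted p = 0.0748, 0.172, 0.414 and 0.844). Over the 7, Pax5 was called at -1.13 (edgeR, adjusted p = 0.0323). Mmp8 was at -1.63 there, since DMM replicate 4 had 10.8 CPM and DMM replicates 2, 3 and 5 had 0.32 to 1.1 CPM.

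The remaining lists held genes of the interferon response, other kidney cells and the mitochondrial genome. For comparison, 3.56% of all tested genes were called lower and 2.73% higher over the 8 libraries, and 7.61% and 6.71% over the 7. All 16 interferon response genes were called lower over the 8 libraries, with a median of -3.20, among them Ifi44, Oas1a and Irf7 at -2.83, -2.93 and -3.61 (edgeR, adjusted p = 0.000376, 0.000159 and 0.00119). Their summed level was between 2989 and 4782 CPM in PBS kidneys, 3673 CPM in DMM replicate 1 and between 409 and 556 CPM in DMM replicates 2 to 5, with Irf7 the most abundant on average. Of 12 proximal tubule genes, 4 were called higher, the uptake receptors Cubn at 1.73 and Lrp2 at 1.97 and the transporters Slc5a12 at 2.11 and Slc17a1 at 1.42 (edgeR, adjusted p = 0.0113, 0.0138, 0.00812 and 0.00620). The list had a median of 1.55 and a summed level of 9808 CPM in PBS replicate 3 against 1348 to 3725 CPM in the other PBS kidneys, 2760 CPM in DMM replicate 1 and 5380 to 9439 CPM in DMM replicates 2 to 5. Of 11 genes of other nephron segments, with a median of 0.62, the transporters Slc12a1 and Slc12a3 and the calcium-binding Calb1 were called higher, at 1.53, 0.95 and 1.86, and the proton pump subunit Atp6v1g3, at 0.32, was not (edgeR, adjusted p = 0.0206, 0.0497, 0.0207 and 0.305). Of 10 fibroblast genes, with a median of -0.55, the collagen chain Col1a2 and the matrix protein Postn fell by 1.11 and 1.78 on the log2 scale (edgeR, adjusted p = 0.0207 and 0.00683). None of 7 endothelial genes was called, with a median of -0.07 and the growth factor receptors Flt1 and Kdr at 0.54 and 0.22 (edgeR, adjusted p = 0.361 and 0.470), or 0.11 and 0.05 without DMM replicate 4. All 12 tested genes of the mitochondrial genome were called higher, with a median of 1.49, among them mt-Nd4l, mt-Nd3, mt-Nd1 and mt-Nd5 of respiratory complex I at 1.80, 1.67, 1.22 and 1.79 (edgeR, adjusted p = 0.0136, 0.0257, 0.00699 and 0.0272). The summed level of this list was 35846 CPM in PBS replicate 3 and 18285 to 21830 CPM in the other PBS kidneys. It was 21863 CPM in DMM replicate 1 and 36745 to 61185 CPM in DMM replicates 2 to 5. None of these genes was called over all 10 libraries. Called over the 7 libraries were 16 interferon response genes, 11 proximal tubule genes, 6 genes of other nephron segments, 6 fibroblast genes, 0 endothelial genes and 12 genes of the mitochondrial genome, in the same directions. Their medians were -3.09, 1.63, 0.90, -0.91, -0.03 and 1.19 over the 7 libraries and -1.83, 0.65, 0.37, -0.23, -0.05 and 0.96 over the 10. The part of tubule RNA, of the interferon response or of other immune cells in the differences of the macrophage genes was not tested.

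Promoter sequences were at hand in RefSeq (GRCm38.p6, the assembly of mm10) for 7 of the 10 genes, all but Adgre1, Csf1r and C1qa. In the 250 bases before the start, the letters GAGGAA, the core bound by PU.1 and its relatives, were found on either strand in C1qb, C1qc, Cd68 and Mrc1, 4 of the 7 genes, and in 23.3% of all 32851 promoters. The letters of interferon-responsive elements, GAAA followed after 2 bases of any kind by GAAA, were found in none of the 7 (0) and in 2.98% of all promoters. The promoters of C1qb and C1qc, which are neighbours, and of Cd68, called over the 8 libraries, are shown 5′ to 3′ on the minus strand, with GAGGAA or its complement TTCCTC in capitals. The window of C1qc, like those of Mrc1, Lyz2 and Cd163, reached into an annotated exon, and for C1qc the 99 bases that precede it are given. A match describes letters in this window and is not evidence of binding.
C1qb, chr4:136886201-136886450: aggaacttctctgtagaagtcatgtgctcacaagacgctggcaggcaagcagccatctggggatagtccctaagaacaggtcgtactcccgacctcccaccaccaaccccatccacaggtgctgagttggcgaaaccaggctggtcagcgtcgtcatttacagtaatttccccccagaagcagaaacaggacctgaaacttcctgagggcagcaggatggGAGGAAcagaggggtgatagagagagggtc
C1qc, chr4:136893066-136893164: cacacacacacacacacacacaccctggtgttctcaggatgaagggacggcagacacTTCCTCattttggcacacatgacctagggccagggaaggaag
Cd68, chr11:69666171-69666420: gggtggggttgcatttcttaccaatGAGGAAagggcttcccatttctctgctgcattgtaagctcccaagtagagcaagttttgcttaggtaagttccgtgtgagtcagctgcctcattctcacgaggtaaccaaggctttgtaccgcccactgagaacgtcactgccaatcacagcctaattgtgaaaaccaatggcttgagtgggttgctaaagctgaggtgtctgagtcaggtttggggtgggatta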

How the data were processed

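RNA of each kidney was extracted, and the authors sequenced the libraries on a NovaSeq X Plus and aligned the reads to mm10. HISAT2 2.0.5 is named in the submitters' processing notes, and the counting tool, the annotation and the use of strand are not given in the sources used here. The authors deposited a raw count per gene and library, which was the input of all tests. The FPKM values were computed by the authors from counts, gene length and a scaled library size, and were used for the order of levels. The group means that were deposited (signal, counts over size factors) served to find the weight of each library, and the deposited gene length, another column, for the length check. The fold change, p-value and adjusted p-value columns of the authors' DESeq2 comparison hold the study's findings and were not used. No other column of sample values was left out (0).

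Genes were filtered by filterByExpr, scaled by TMM and tested by the quasi-likelihood test of edgeR 4.0.16 in R 4.3.3, without covariates. The standard error is the log2 fold change over the square root of F. Log2 CPM used a prior count of 2. DESeq2 1.42.0, other scalings, filters and thresholds, the replicate number as a block and leaving out each library were alternatives. A correction for gene length, in which a lowess trend of each library entered the offsets, was chosen after the data were seen. The steps were tested on simulated data. No libraries were duplicates, since the counts of every pair of libraries differed beyond sampling noise. Totals of 15722527 to 19475833 counts per library gave each macrophage gene of the group but Cd163 377 or more counts, and no molecular identifiers are described, so that reads are not independent molecules.

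Members and the 18 gene lists were chosen with earlier results of these data known. Named from each other list were the 2 tested genes of smallest p over 10 libraries and any gene whose adjusted p passed over the 10 or the 8, up to 4 per list, though not every gene that this rule takes is reported. Il34 and Lyz1 were named besides, as partner and paralog of members. Overlapping genes were taken from GENCODE M21 and promoters from RefSeq. The set of 8 libraries came from an earlier look at these data. It leaves out 2 libraries that are nearest to a library of the other group, as PBS replicates 2, 4 and 5 are too. The set of 7 was added after seeing these data. A planned comparison of the C1q and lysozyme proteins was not made, since no protein table was at hand.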

Additional observations from a re-analysis of the deposited data

Results flagged for a closer look

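Of 38 groups of 5 values, which comprised the 10 genes and 9 list sums in each treatment, 5 held a value far from the others of its group by Dixon's test, and chance gives about 1 in 20. Mrc1 was high in DMM replicate 4, at 202 CPM, and Cd163 in PBS replicate 4, at 6.70 CPM. The summed level of the neutrophil list was high in PBS replicate 4, at 156 CPM, that of the proximal tubule list in PBS replicate 3, at 9808 CPM, and that of the interferon response list in DMM replicate 1, at 3673 CPM. Not every list was among the 9. The mitochondrial genome sum, not among the 5 results, was 35846 CPM in PBS replicate 3 and 18285 to 21830 CPM in the other PBS kidneys. The reasons were not tested.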

How the results depend on the processing

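Over 10 libraries, 0 genes were called, and 50 by DESeq2, 993 by p below 0.05 without adjustment and a fold change over 1.5, and 1042 when the 8 libraries were used. Of the macrophage genes, 0, 5 and 2 passed under these settings. Leaving out a library gave 0 to 486 genes and 0 to 1 macrophage genes, where 486 genes and Cd68 (-0.91) were called without DMM replicate 1. Over the 8 libraries, 1042 of 16550 tested genes and 2 macrophage genes were called. DESeq2 tested 30116 genes and called 1660, of which 911 were lower, and 6 macrophage genes, all lower. At the unadjusted p with a fold change over 1.5, 2265 genes and 6 macrophage genes passed. These 6 were lower, as were 7.24% of tested genes by this rule. With the correction for gene length, chosen after seeing the data, 1262 genes were called, 681 of them lower. Among them were 5 macrophage genes, Cd68, Lyz2, C1qa, C1qb and C1qc. The log2 fold changes of these 5 were -0.84, -0.90, -1.46, -1.35 and -1.21 with it, against -0.97, -0.95, -1.44, -1.35 and -1.24 without. Over the 10 libraries the same correction gave 0 genes and 0 macrophage genes.

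Leaving out a library of the 8 gave 407 to 2410 genes and 1 to 6 macrophage genes. Counts were 592, 547, 477 and 407 without PBS replicates 1, 2, 4 and 5, 494 and 470 without DMM replicates 3 and 5, and 2410 without DMM replicate 4. With library size alone, calls over the 8 libraries split into 700 lower and 276 higher, against 590 and 452, the median of all genes moved from 0.02 to -0.09, and Adgre1 (-0.78) was called in place of C1qb. With the replicate block, 0 genes and 0 macrophage genes were called in either set, and Cd68 over the 8 libraries had an edgeR adjusted p of 0.217. Among the 8, PBS replicate 1 and DMM replicate 3 have no library of the same number and add nothing to the blocked difference. Little is then left to estimate the error from, so that the loss of calls there says little about the differences. The numbers do not pair the samples (correlations of -0.06, 0.08, 0.34, 0.12 and -0.22), and not every library matched its own number best.

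The log2 fold change of Mrc1 was between -0.13 (without DMM replicate 4) and 0.23 (without PBS replicate 2) over 10 libraries. Over the 8 it was -0.07 (-0.0681) with library size alone, -0.02 without PBS replicate 1, -0.25 without DMM replicate 4 and up to 0.20 without DMM replicate 3. No other macrophage gene changed sign under any setting tried. The causes were not tested. The order of levels by TMM CPM per kilobase kept 20 of 20 places, which is little of a check, since it uses the same counts and lengths as FPKM.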
